A study of Mus musculus with 6 samples.

Results

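Sterol synthesis was followed through 7 enzyme genes, Hmgcs1, Idi1, Fdft1, Sqle, Lss, Cyp51 and Dhcr7, in bulk RNA of mouse subventricular zone (SVZ), a ventricle-lining tissue that holds neural stem cells. The members were listed by symbol as genes of cholesterol synthesis and uptake, and all 7 encode synthesis enzymes. They are 7 of 18614 genes for which the deposited transcript counts were summed by NCBI gene number. The study compared 3 libraries labelled Zhx2Δ/Δ, a homozygous deletion (called KO here), with 3 labelled Zhx2+/+ (WT), and every direction below is that of the KO-labelled libraries against WT. Titles name all 3 KO libraries as ZHX2 KO, while the genotype tags read ZHX2 KO for KO 1, ZHX3 KO for KO 2 and ZHX4 KO for KO 3. The labels used here give neither the age of the mice nor the strain, no allele or treatment shared by both groups, and no driver for the deletion. They do not say whether a library is 1 animal or a pool, so each p-value measures the spread among these 6 libraries alone, some of which may be technical.

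Cholesterol is made in the endoplasmic reticulum from acetyl-CoA by way of mevalonate, the isoprenoid units, squalene and lanosterol. The brain makes its own cholesterol, since plasma lipoproteins do not cross the blood-brain barrier, and myelinating oligodendrocytes and astrocytes are its main producers. When membrane sterol is low, the escort protein SCAP is freed from INSIG and carries the precursor of SREBP-2 (gene Srebf2) to the Golgi, where proteolysis releases the active factor. It then binds sterol response elements in the promoters of most enzyme genes of the pathway. Adjacent CCAAT and GC boxes, bound by NF-Y and Sp1, commonly accompany these elements.

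Promoter stretches are shown for Hmgcs1, the member that enters the pathway first, for Idi1, the member that varied most between libraries, and for Cyp51, as a late enzyme. Each is the 250 bases before the transcript start, 5′ to 3′ on the gene's strand, from RefSeq's table of GRCm38.p6, with capitals at matches to any of the 3 motifs searched on both strands, which are the sterol response element core TCACNCCAC, the CCAAT box CCAAT and the Sp1 box GGGCGG.
Hmgcs1 (chr13:119690101-119690350, plus strand): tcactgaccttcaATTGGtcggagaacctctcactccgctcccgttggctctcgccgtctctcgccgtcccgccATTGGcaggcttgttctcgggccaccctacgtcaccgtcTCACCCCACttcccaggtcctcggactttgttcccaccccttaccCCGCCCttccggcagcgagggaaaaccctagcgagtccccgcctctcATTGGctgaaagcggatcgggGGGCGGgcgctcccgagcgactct
Idi1 (chr13:8885356-8885605, plus strand): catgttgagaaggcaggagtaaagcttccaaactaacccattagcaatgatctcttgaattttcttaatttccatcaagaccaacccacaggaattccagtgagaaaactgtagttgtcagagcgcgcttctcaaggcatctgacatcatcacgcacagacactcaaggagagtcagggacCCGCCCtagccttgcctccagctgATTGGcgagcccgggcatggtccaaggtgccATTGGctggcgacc
Cyp51 (chr5:4104698-4104947, minus strand): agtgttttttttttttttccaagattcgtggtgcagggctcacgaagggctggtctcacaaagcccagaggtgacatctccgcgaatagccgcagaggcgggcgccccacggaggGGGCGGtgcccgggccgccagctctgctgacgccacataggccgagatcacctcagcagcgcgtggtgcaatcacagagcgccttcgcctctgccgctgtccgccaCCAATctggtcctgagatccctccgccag
The table matched 5 of the 7 members, in 7 windows; Sqle and Fdft1 were not matched. The element core was in 1 of these 7 windows, that of Hmgcs1, and in 1.05% of all 32851 windows of the same length. The CCAAT box was in 5 of the 7 windows and in 33.8% of all windows. The Sp1 box was in 6 of the 7 windows and in 32.7% of all windows. These matches describe letters in the windows and are not binding sites. Only these spellings within 250 bases were searched, so a window without a match is not shown to lack the element.

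The libraries held between 17104704 and 17452615 estimated counts in KO and between 17037152 and 17685906 in WT. Zhx2, the gene the deletion is meant to remove, had 1139, 1004 and 959 counts in KO 1 to 3, against 735, 675 and 659 in WT 1 to 3, so the transcript level goes against the label. Levels of tissue marker RNA differed between the libraries. The 12 markers of choroid plexus, which produces cerebrospinal fluid, summed to between 311 and 513 CPM (counts scaled to library size) in KO, against between 5315 and 22782 CPM in WT. For these markers edgeR called 0 of 12, against 0% of all genes tested, and DESeq2 called 12 of 12 lower in KO, against 2.06% called in either direction. Striatal neuron markers were lowest in WT 1 and highest in WT 2 for 10 of 10 genes. Cortical excitatory neuron markers were highest in KO 1 for 6 of 7 genes, and their sum was between 75.2 and 1239 CPM in KO and between 72.7 and 643 CPM in WT. Ttr, the transthyretin gene of that epithelium, was between 13.0 and 114 CPM in KO, against between 3133 and 15337 CPM in WT. No listed marker of these 3 kinds had a count of 0 in any library.

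None of the 7 sterol synthesis genes passed the test for a difference between the groups. Levels are CPM scaled by edgeR's TMM factors, and the test was edgeR's quasi-likelihood test with Benjamini-Hochberg adjustment over all 15126 genes tested. It called 0 of the 7 members at an adjusted p of 0.05, against 0% of all genes tested. DESeq2 also called 0 of 7, against 2.06% of all genes, and limma-voom called 0 of 7, against 0%. No member had an unadjusted p under 0.05 in edgeR, against 9.07% of all genes. Of the 7 log2 fold changes 3 were positive and 4 negative, and their median was -0.02, against 0.02 over all genes tested. All 7 passed the filter on low counts.

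**Figure D1:**
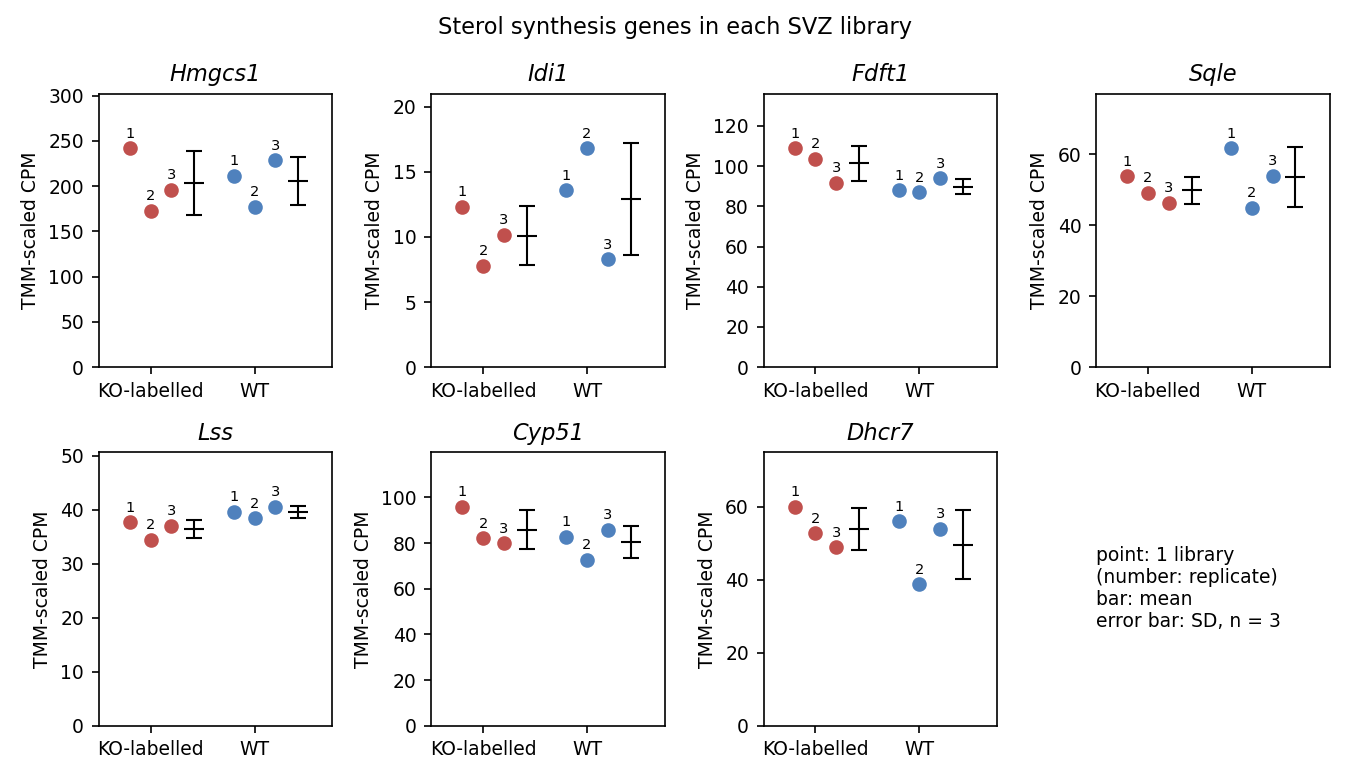
TMM-scaled CPM (vertical axes, starting at 0) of the 7 genes in each library, with KO-labelled libraries on the left of each panel, WT libraries on the right, and the mean with its SD (n = 3) beside each group. The groups overlap in every panel except that of Lss, where KO libraries lie between 34.4 and 37.6 CPM and WT libraries between 38.4 and 40.6 CPM.

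Hmgcs1 encodes the cytosolic HMG-CoA synthase, which makes HMG-CoA on the way to mevalonate. The gene lies on chromosome 13 of GRCm38 (mm10), from 119690351 to 119708260. It was at 242, 173 and 196 CPM in KO 1 to 3, against 212, 177 and 229 CPM in WT 1 to 3. The highest and the lowest of the 6 libraries, KO 1 and KO 2, were both KO, and the groups overlapped. The means were 204 ± 35.1 CPM in KO and 206 ± 26.3 CPM in WT (SD, n = 3 each), a log2 fold change of -0.02 (SE 0.16, edgeR adjusted p = 0.986). The 95% interval was from -0.40 to 0.37, and the sign changed with single libraries left out.

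Idi1 encodes isopentenyl-diphosphate isomerase, which interconverts both isoprenoid building blocks; it lies on chromosome 13 from 8885606 to 8892396. It was the least abundant of the 7 and the most variable, at 12.3, 7.78 and 10.2 CPM in KO, against 13.6, 16.8 and 8.30 CPM in WT. WT 3 was as low as the KO libraries, and the highest library had 2.16 times the level of the lowest. On the log2 scale KO over WT was -0.35 (SE 0.29, edgeR adjusted p = 0.751), with a 95% interval from -1.05 to 0.34. It was -0.13 without WT 2 and -0.59 without WT 3. These levels rest on between 135 and 209 estimated counts in KO and between 143 and 280 in WT. Reads of the paralog Idi2, which had at most 3 counts in a KO library and 3.68 in a WT library, were nearly absent. Of the 7 intervals this was the 1 that reached beyond -1, which is a halving of the level.

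Fdft1 encodes squalene synthase, the first enzyme committed to sterols, on chromosome 14 from 63145150 to 63181687. It was at 109, 104 and 91.8 CPM in KO, against 88.0, 87.1 and 93.9 CPM in WT. KO 1 and KO 2 lay above every WT library and KO 3 within the WT range. The means were 101 ± 8.75 CPM in KO and 89.7 ± 3.69 CPM in WT (SD, n = 3 each). Its log2 fold change of 0.18 (SE 0.10, 95% interval from -0.06 to 0.42) had the smallest p of the 7, with an edgeR adjusted p of 0.654. The Fdft1 locus overlaps 774 bases of Ctsb, the abundant gene of cathepsin B. Strand use in the authors' counting is not given in the sources used here, so reads from that stretch cannot be told apart.

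Sqle encodes squalene epoxidase, the oxygen-dependent and rate-controlling step after squalene. It lies on chromosome 15 from 59315092 to 59331193, 1475 kb beyond the end of Zhx2, so it is the member that shares a chromosome with the targeted gene. It was at 53.8, 49.2 and 46.3 CPM in KO, against 61.7, 44.9 and 53.9 CPM in WT. All 3 KO libraries lay inside the WT range. The log2 fold change of Sqle was -0.10 (SE 0.14, 95% interval from -0.43 to 0.22, edgeR adjusted p = 0.849).

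Lss encodes lanosterol synthase, which folds the epoxide into the first sterol, on chromosome 10 from 76531565 to 76557139. It was at 37.6, 34.4 and 37.1 CPM in KO, against 39.6, 38.4 and 40.6 CPM in WT, and was the steadiest of the 7, with the highest library at 1.18 times the lowest. Every KO library lay below every WT library. The exact two-sided permutation p was 0.1, the smallest that 3 against 3 libraries can give. The log2 fold change was -0.12 (SE 0.09, 95% interval from -0.33 to 0.10, edgeR adjusted p = 0.732). Lss was the 1 member of 7 whose groups did not overlap. Of all genes tested, 16.7% had groups that did not overlap, 8.74% being lower in KO and 8% higher. The Lss locus overlaps 11269 bases of a long noncoding RNA gene that is not among the genes counted. Reads from that stretch cannot be told apart.

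Cyp51 and Dhcr7 act on sterols after lanosterol. Cyp51, on chromosome 5 from 4080674 to 4104697, encodes lanosterol 14-alpha-demethylase. It was at 95.9, 82.0 and 79.9 CPM in KO, against 82.7, 72.6 and 85.8 CPM in WT, a log2 fold change of 0.10 (SE 0.12, edgeR adjusted p = 0.834). KO 1 was the highest library and WT 2 the lowest, and the remaining 4 were between 79.9 and 85.8 CPM. Dhcr7, on chromosome 7 from 143823167 to 143848410, encodes 7-dehydrocholesterol reductase, which makes cholesterol itself and is mutated in Smith-Lemli-Opitz syndrome in humans. It was at 60.0, 52.8 and 48.9 CPM in KO, against 56.1, 38.7 and 53.9 CPM in WT. WT 2 was apart from the other 5 libraries, which were between 48.9 and 60.0 CPM. For Dhcr7 the log2 fold change was 0.12 (SE 0.16, edgeR adjusted p = 0.854), and without WT 2 it was -0.04.

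**Figure D2:**
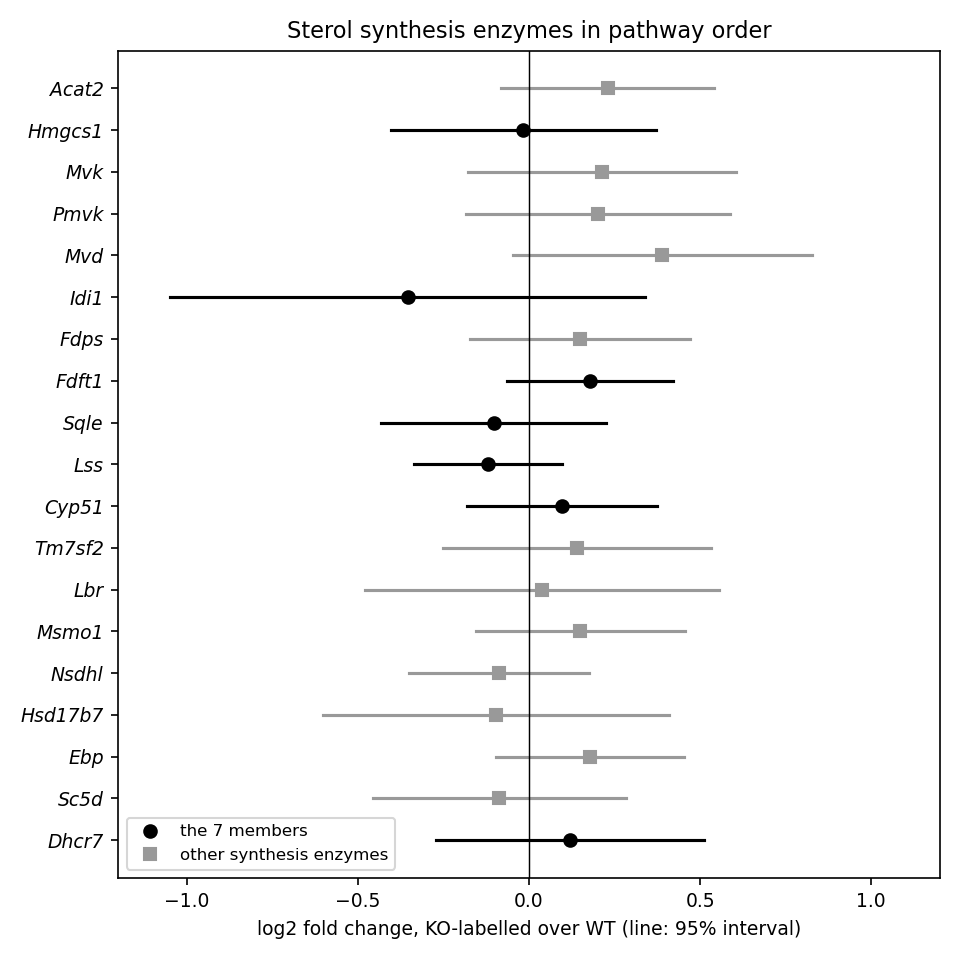
Log2 fold change of KO-labelled over WT libraries (horizontal axis) for 19 sterol synthesis enzymes in pathway order, with lines for the 95% interval of edgeR's fit. All 19 intervals include 0, those of the 7 members (circles) and those of the other 12 enzymes drawn (squares), and the widest among the 7 is that of Idi1, from -1.05 to 0.34.

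The size of change that these 6 libraries could show was limited. The 95% intervals of 6 of the 7 members lay wholly between -1 and 1 on the log2 scale, so a halving or doubling lay outside them. Among these 6 the lowest bound was -0.43 (Sqle) and the highest 0.51 (Dhcr7). Changes within a gene's own interval remained possible. Within a group the coefficient of variation of the 7 genes had a median of 10.1% in KO and 12.8% in WT, against medians of 12.2% in KO and 13.2% in WT over all genes tested. The highest library over the lowest was 1.37 in the median of the 7, against 1.51 over all genes tested. The summed level of the 7 was 610.4, 503 and 510.03 CPM in KO 1 to 3, against 553, 476 and 565 CPM in WT 1 to 3. The sums overlapped, with means of 541 ± 60.2 CPM in KO and 531 ± 48.5 CPM in WT (SD, n = 3 each).

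The order of the 7 levels was set by gene and hardly by group. Levels of different genes were compared per transcript length, as the authors' FPKM summed over each gene's transcripts. Hmgcs1 was highest, at 57.3 ± 8.96 FPKM in KO and 59.4 ± 8.76 FPKM in WT (SD, n = 3 each). Fdft1 followed at 27.0 ± 2.12 FPKM in KO and 24.4 ± 1.22 FPKM in WT, and Dhcr7 at 22.5 ± 2.14 FPKM in KO and 21.1 ± 4.44 FPKM in WT. Cyp51 and Sqle changed places between the groups, Cyp51 being at 19.4 ± 1.66 FPKM in KO and 18.5 ± 2.00 FPKM in WT, and Sqle at 17.9 ± 1.13 FPKM in KO and 19.7 ± 3.72 FPKM in WT. From Fdft1 to Sqle the ranges of neighbours in this order overlapped in both groups, although Fdft1 was above Dhcr7 within each of the 6 libraries. Lss, at 5.80 ± 0.231 FPKM in KO and 6.55 ± 0.405 FPKM in WT, lay below all of them in every library. Idi1 was last, at 3.47 ± 0.736 FPKM in KO and 4.52 ± 1.46 FPKM in WT, and below Lss in every library.

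**Figure D3:**
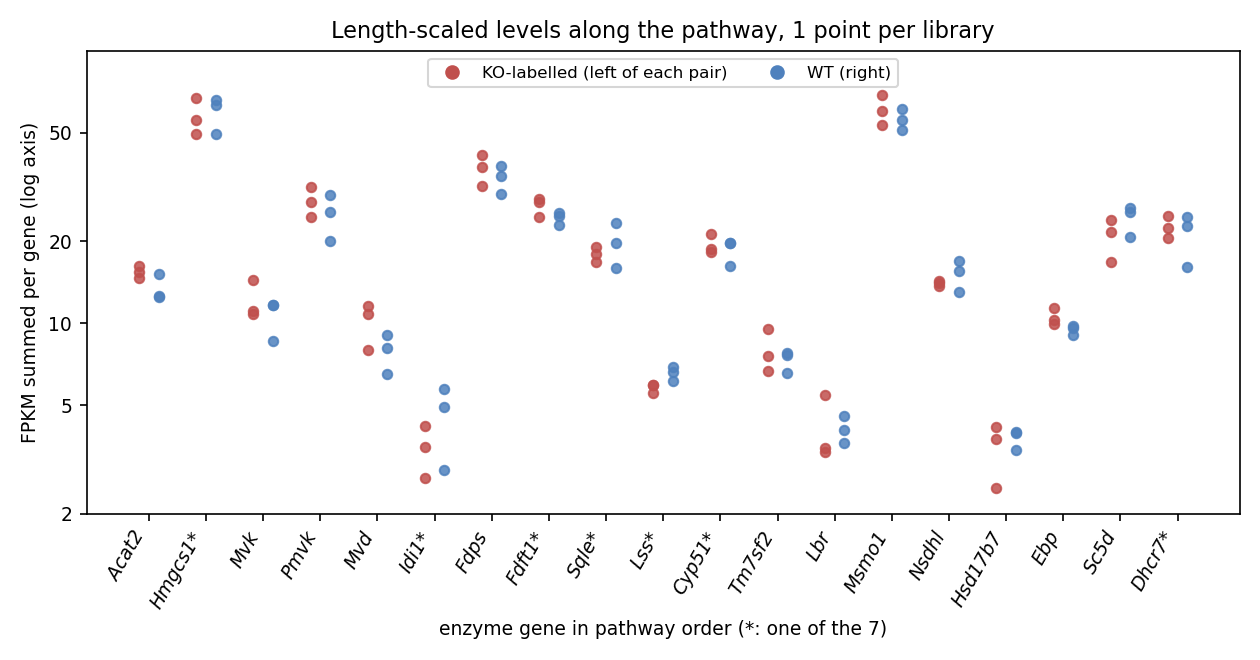
Length-scaled level (FPKM summed per gene, log axis) of 19 sterol synthesis enzymes in pathway order, with 1 point per library, KO-labelled libraries left and WT libraries right in each pair. Hmgcs1 and Msmo1 are the most abundant, at 57.3 and 60.8 FPKM in the KO mean and 59.4 and 55.9 FPKM in the WT mean, and the pairs overlap for most enzymes.

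The deposited table splits 4 of the 7 genes over several RefSeq transcripts, and these splits were less steady than the gene sums. Dhcr7 has 6 transcripts, of which a pair of predicted ones are 2337 and 2336 bases long, as computed from the FPKM. In KO 1 they held 467 counts each and in KO 3 344 counts each, while in KO 2 the first held 775 counts and the second 0.01. In WT 1 to 3 they held 370.3, 287 and 338 counts each. The sum of Dhcr7 in KO 2, at 916 counts, lay between those of KO 1 and KO 3, at 1018 and 832 counts, and did not stand apart. Hmgcs1 has 3 transcripts, and one of its curated transcripts held 39.3% of its counts in KO and 31.7% in WT, each pooled over the group. It had 1687, 1095 and 1322 counts in KO 1 to 3, against 1140, 1343 and 945 in WT 1 to 3, so the groups overlapped. A predicted transcript held more, 49.5% in KO and 60.4% in WT. Gene sums alone were tested. Sqle, Idi1 and Cyp51 have 1 transcript each in the table.

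For several of the 7 genes the extremes fell in the same single libraries. KO 1 was the highest library for 4 of the 7 (Hmgcs1, Fdft1, Cyp51 and Dhcr7), and WT 2 was the lowest for 4 (Sqle, Fdft1, Cyp51 and Dhcr7). Idi1 was instead highest in WT 2, and Lss was lower in every KO library than in every WT library. Over all 21 synthesis enzymes listed, KO 1 was highest for 13, while it was highest for 17.7% of all genes tested. WT 2 was lowest for 12 of the 21, while it was lowest for 23.6% of all genes tested. Relative to each gene's mean over the libraries, the mean log2 level of the 7 was 0.16 in KO 1, -0.11 in KO 2 and -0.08 in KO 3, against 0.10, -0.07 and 0.00 in WT 1 to 3.

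**Figure D4:**
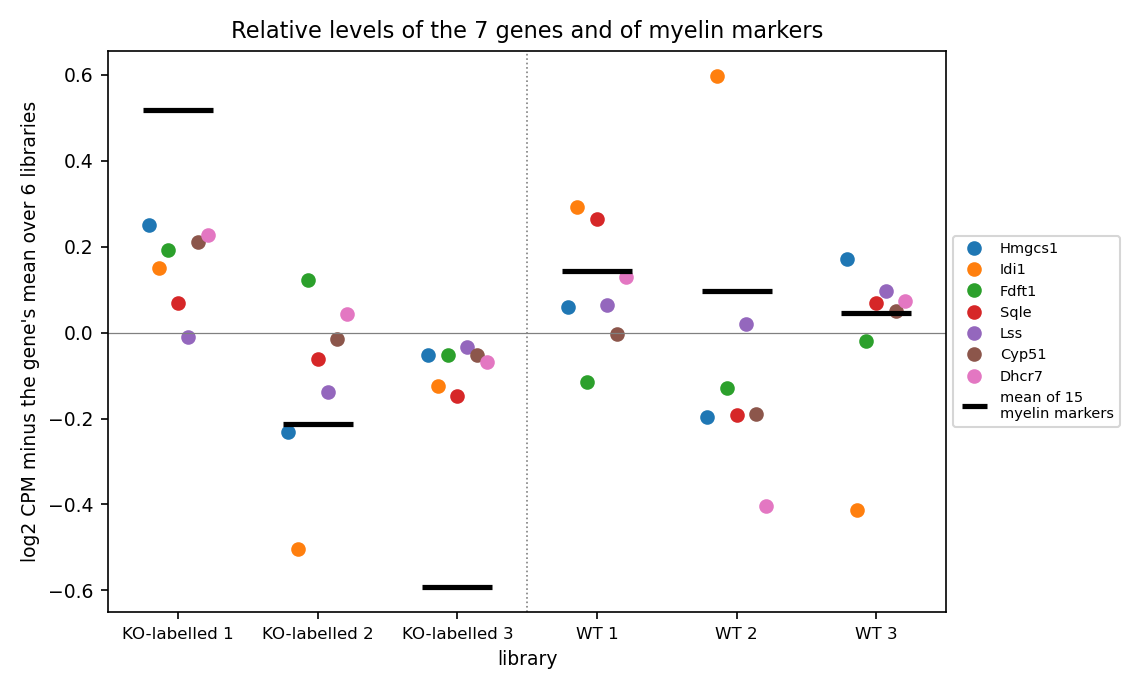
Log2 CPM of each of the 7 genes minus its own mean over the 6 libraries (vertical axis), for KO-labelled libraries 1 to 3 and then WT libraries 1 to 3, with a black bar for the mean of 15 myelin markers. The myelin bar falls by 1.11 log2 units between KO 1 and KO 3, while the mean of the 7 genes ranges over 0.27 log2 units in all 6 libraries.

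Myelin markers, which mark the mature oligodendrocytes that use much of the brain's cholesterol, also differed among the KO libraries. All 15 were highest in KO 1, and 14 of 15 were lowest in KO 3. Their sum was 21628, 12853 and 9445 CPM in KO 1 to 3, against 15861, 15607 and 15419 CPM in WT 1 to 3, and none had a count of 0 in any library. Mbp, the myelin basic protein gene, was at 9953, 5752 and 3928 CPM in KO, against 6916, 6681 and 6734 CPM in WT. Between KO 1 and KO 3 Mbp differed 2.53-fold and Mog, a gene of the outer myelin surface, 2.11-fold, while the 7 sterol genes differed between 1.02-fold (Lss) and 1.23-fold (Hmgcs1). Between KO 1 and KO 2 the ratios lay closer together, at 1.73 for Mbp and 1.48 for Mog, against 1.58 for Idi1, 1.40 for Hmgcs1 and between 1.05 and 1.17 for the other 5 sterol genes. Between the groups the median log2 fold change of the myelin markers was -0.11 and edgeR called 0 of 15, against 0% of all genes tested. The part of myelin, of cortical neuron and of blood content in the high values of KO 1 was not tested; globin and other blood genes were highest in KO 1 for 4 of 5 and lowest in WT 2 for 5 of 5. In bulk RNA, fewer cells of a type and less RNA per cell cannot be told apart.

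No other enzyme of the route was called either. Of 14 further synthesis enzymes listed, edgeR, DESeq2 and limma-voom called 0, against 0%, 2.06% and 0% of all genes tested. The groups overlapped for each of the 14, while they did not overlap for 16.7% of all genes tested. Of the 14 log2 fold changes 10 were positive and 4 negative, with a median of 0.14 against 0.02 over all genes tested. Mvd, the mevalonate diphosphate decarboxylase gene, had the smallest p, at 20.7, 18.9 and 14.0 CPM in KO, against 15.2, 11.6 and 14.1 CPM in WT. The log2 fold change of Mvd was 0.39 (SE 0.18, edgeR adjusted p = 0.591). Acat2, the cytosolic acetoacetyl-CoA thiolase gene, followed with 0.23 (SE 0.13), and Ebp, the sterol isomerase gene, with 0.18 (SE 0.12).

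Of 19 genes that sense and take up sterol, edgeR, DESeq2 and limma-voom called 0, against 0%, 2.06% and 0% of all genes tested. Of the 19 log2 fold changes 15 were negative, with a median of -0.13, and 2 of 19 had an unadjusted p under 0.05, against 9.07% of all genes tested. Groups did not overlap in 4 of 19, all lower in KO, against 8.74% of all genes tested. Srebf2 was at 243, 218 and 207 CPM in KO, against 201, 264 and 228 CPM in WT (log2 fold change -0.05, SE 0.13). Insig1, which retains the SREBP escort and is itself an SREBP target, was at 75.6, 58.9 and 62.7 CPM in KO, against 83.0, 55.8 and 65.8 CPM in WT, with a log2 fold change of -0.05 (SE 0.17). The groups overlapped for both genes.

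The smallest p among the 19 sensing and uptake genes were those of Vldlr, Srebf1 and Lrp8. Vldlr, a receptor gene for apolipoprotein E particles and reelin, was at 92.0, 106 and 112 CPM in KO, against 132, 143 and 126 CPM in WT. Its log2 fold change was -0.37 (SE 0.11, edgeR adjusted p = 0.402). Srebf1, which encodes the SREBP form that acts mainly on fatty acid synthesis, was at 86.7, 90.1 and 86.5 CPM in KO, against 117, 109 and 95.9 CPM in WT (log2 fold change -0.29, SE 0.11, adjusted p = 0.494). Lrp8, the other reelin receptor gene, had -0.40 (SE 0.17, adjusted p = 0.555). For Vldlr and Srebf1 every KO library was below every WT library, and WT 3, which had the least choroid plexus marker RNA of the WT libraries, was the lowest WT library. The part of choroid plexus content in these values was not tested.

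The mean profile of the 7 over the libraries, which ranged over 0.27 log2 units, had near matches outside the route. Among 10817 other genes with a mean of at least 10 CPM, the smallest root mean square distance from the mean profile of the 7, in log2 units over the 6 libraries, was that of Gyg, at 0.030. Tti2 followed at 0.034, Atg3 at 0.038, Srsf9 at 0.039, Pcbp2 at 0.040 and Cyb561d2 at 0.041. The nearest of the 14 other synthesis enzymes was Nsdhl, a sterol dehydrogenase gene, at rank 243 with 0.082. The median distance of the 14 was 0.157, against 0.193 over all candidates. Since the mean profile is nearly flat, this distance is small for genes that vary little, whatever their pattern. The 7 members themselves lay between 0.081 (Cyp51) and 0.368 (Idi1) from their mean, so it was not a profile that each member followed.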

How the data were processed

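Bulk RNA of the SVZ from 3 KO-labelled and 3 WT libraries was analysed, grouped and numbered by the sample titles. For each of 61481 RefSeq transcripts the authors deposited estimated counts, fractional and not normalized, per the file headers and values. The authors' deposited FPKM divide by transcript length and library size, as the values show; their group means were not used. The submitters' processing notes name mm10 and limma 3.40.6. Aligner, quantifier and annotation release: not given in the sources used here.

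Transcript values were added up by NCBI gene number and rounded. RefSeq's table of GRCm38.p6 named 18489 of 18614 genes; the other 125 took 0.104% to 0.140% of the counts. A gene not seen (3 counts) would be at up to between 0.170 and 0.176 CPM, which covers counting error only. edgeR 4.0.16 in R 4.3.3 was run with TMM scaling, filterByExpr (minimum count 10), robust quasi-likelihood F tests, a two-sided test of group alone, and Benjamini-Hochberg adjustment over 15126 genes. DESeq2 1.42.0 and limma-voom (limma 3.58.1) were alternatives, as were other scalings and filters, a replicate block, single libraries left out, KO 1 alone against WT, and limma on log2(FPKM + 1) or log2(FPKM + 0.1). Intervals (95%) and SEs were derived from the F statistics. The procedure was tested on simulated counts. No pair of libraries within a group agreed within sampling noise (chi-square per degree of freedom between 21.7 and 95.4).

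The members and gene lists were chosen with earlier results of these data known. Genes were named by this rule: all members, Srebf2, Insig1, up to 3 genes with the smallest p per pathway list, the 6 genes nearest in profile, Zhx2 and a few defining markers. Some genes that the rule names are not reported here. Idi2, Ctsb, Msmo1 and Nsdhl were named after their values were seen. Marker lists also covered astrocytes, oligodendrocyte precursors, ependymal cells, neuroblasts, microglia and endothelial cells.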

Additional observations from a re-analysis of the deposited data

How the results depend on the processing

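None of the 7 genes passed in any of 126 combinations of gene and alternative, with adjusted p between 0.488 and 0.998, and the count of members called was 0 under each of 16 alternatives. Fdft1 and Cyp51 stayed positive and Idi1 and Lss negative throughout, but with single libraries left out Idi1 ranged from -0.59 (without WT 3, unadjusted p = 0.047 in edgeR) to -0.13 (without WT 2), and Cyp51 was 0.010 without KO 1 and 0.017 without WT 2. The sign of Hmgcs1 turned positive with KO 1 alone against WT (0.23), where the lone library is assumed to vary like the WT libraries, and with single libraries left out, over which it ranged from -0.16 to 0.089. Sqle turned to 0.011 with KO 1 alone against WT and ranged from -0.23 to 0.011 with single libraries left out. Dhcr7 ranged from -0.042 to 0.22 in that way. With KO 1 alone against WT the median of the 7 was 0.23 and the log2 ratio of summed CPM 0.20, against 0.03 with all KO libraries. The count over all genes was 0 in edgeR, 311 in DESeq2 (6 higher and 305 lower) and, with single libraries left out in edgeR, between 0 and 137, the 137 being without WT 3. The cause was not tested. Under the replicate block the fold changes of the 7 kept their signs, Fdft1 at 0.18 and Idi1 at -0.32, and 0 genes were called; same-numbered libraries did not deviate together (correlations of -0.17, -0.08 and -0.04). Depth limits Idi1 most, with at most 280 counts in a library.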

Other observations

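Of 10 genes listed with the side branches at the isoprenoid units, edgeR, DESeq2 and limma-voom called 0, against 0%, 2.06% and 0% of all genes. Fold changes were positive for 9 of 10, and 3 had an unadjusted p under 0.05, against 9.07% of all genes. Coq2, which joins the isoprenoid tail to the head group of coenzyme Q, was at 53.1, 48.1 and 46.0 CPM in KO, against 30.6, 40.0 and 34.9 CPM in WT. Its log2 fold change was 0.48 (SE 0.13, edgeR adjusted p = 0.325), and every KO library was above every WT library. Fdx2, also on this list, encodes a mitochondrial ferredoxin and not an enzyme that uses isoprenoid units. It was at 22.7, 23.4 and 19.3 CPM in KO, against 15.9, 16.3 and 16.9 CPM in WT (log2 fold change 0.41, SE 0.12, edgeR adjusted p = 0.354). Dhdds, a dolichol synthesis gene, had 0.23 (SE 0.10, adjusted p = 0.544). In these 3 of 10 genes, Fdx2 among them, KO lay wholly above WT, against 8% of all genes tested. The list was chosen with earlier results of these data known.

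Genes of cholesterol export, storage and breakdown had 0 of 12 called in edgeR and DESeq2, against 0% and 2.06% of all genes tested. Their median log2 fold change was 0.09. Abca1, the exporter gene and a target of liver X receptors, was at 45.6, 45.9 and 59.0 CPM in KO, against 74.3, 82.2 and 59.0 CPM in WT (log2 fold change -0.52, SE 0.16, edgeR adjusted p = 0.423), with KO 3 and WT 3 at the same level. Cyp46a1, the neuronal 24-hydroxylase gene, had 0.44 (SE 0.24) and Nr1h2, which encodes liver X receptor beta, 0.17 (SE 0.11). Of 14 fatty acid synthesis genes edgeR called 0, against 0% of all genes tested, and DESeq2 called 1, against 2.06%. The 1 was Acacb, the gene of the mitochondria-associated acetyl-CoA carboxylase. Acacb was at 5.66, 6.85 and 7.28 CPM in KO, against 29.8, 23.1 and 14.4 CPM in WT, a log2 fold change of -1.76 (SE 0.28, edgeR adjusted p = 0.151; DESeq2 adjusted p = 3.05e-06). WT 3 was its lowest WT library, as for the choroid plexus markers, whose part in this value was not tested. Elovl6 had -0.19 (SE 0.12) and Acly 0.19 (SE 0.15), and neither passed.

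edgeR called 0 genes in every other marker list, while DESeq2 called 5 of 8 ependymal and 2 of 8 endothelial markers, all lower in KO, and 0 in the rest of those named here, against 2.06% of all genes. Median log2 fold changes were -0.97 for 8 ependymal markers, 0.32 for 9 of microglia, 0.15 for 10 of astrocytes, -0.15 for 8 of endothelial cells, -0.08 for 8 of neuroblasts and 0.01 for 10 of new oligodendrocytes and their precursors. Aldh1l1, an astrocyte gene, was at 69.7, 90.0 and 70.8 CPM in KO, against 48.9, 56.0 and 63.1 CPM in WT (log2 fold change 0.46, SE 0.15, edgeR adjusted p = 0.429), with every KO library above every WT library. Sox9, of the same list and chosen after its values were seen, lay the other way, at 43.1, 41.8 and 39.6 CPM in KO, against 69.2, 53.0 and 49.1 CPM in WT (log2 fold change -0.46, SE 0.14, edgeR adjusted p = 0.415). Of the 10 astrocyte markers 7 fold changes were positive and 3 negative, and of the 8 endothelial markers 2 were positive and 6 negative.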
